A study of Mus musculus with 6 samples.

Results

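A set of 35 macrophage, monocyte and general leukocyte genes was followed in mouse liver RNA after a change of diet. The genes were chosen by name, as markers of Kupffer cells, of recruited monocyte-derived cells and of leukocytes as a whole. Earlier results of these data were known when they were chosen. All probe sets whose single gene symbol was one of these names were taken, which gave 47 probe sets for 33 of the 35 genes, out of 12488 probe sets in all. Gpnmb and Plek had no such probe set and were not analysed here. Both groups were C57BL/6 mice, a common inbred strain, 1 fed a high-fat food of Western style for 12 weeks and the other a low-fat food for as long. There were 3 arrays to a diet. The labels do not state the age or sex of the mice, or whether an array holds 1 mouse or a pool, so p-values measure the spread between these arrays, which may in part be technical. The labels' keywords include deficiency of the LDL receptor, but the 6 arrays carry no such allele in their labels.

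Kupffer cells are the macrophages that live in the liver sinusoids, where they take up particles, lipoproteins and ageing red cells from portal blood. They express Clec4f, Marco and Cd5l. When the liver is injured or loaded with fat, blood monocytes that carry the chemokine receptor Ccr2 can enter, and macrophages that gather around fat-laden hepatocytes are known for Gpnmb and Lgals3, while activated macrophages make Mmp12. The transcription factor PU.1, encoded by the member Spi1, is required for the myeloid lineage and binds purine-rich sites in the promoters of many of these genes. In whole-liver RNA, a larger number of such cells and more transcript per cell cannot be told apart.

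Promoter sequences were matched by symbol in RefSeq (GRCm38.p6) for 27 of the 35 genes, over windows from 250 bases before to 50 after the start site. The letters GAGGAA, a core of PU.1 sites, were sought on both strands and stood in a promoter of 14 of the 27 genes (51.9%), against 31.3% of all 27018 genes with a promoter entry. AGGAAGT, which can overlap the first motif, was found for 6 of 27 genes (22.2%), against 10.7% of all genes. TTGCNNAA, one form of the C/EBP motif, was found for 3 of 27 (11.1%), against 12.2%. A match of letters is a description and not a site. The stretches printed here, each of 150 bases with 140 before the start site, belong to Mpeg1, Ctss and Lgals3, members whose high-fat arrays were all above the low-fat ones, to Mmp12, a marker of recruited cells, and to Cd5l, a Kupffer cell gene. Capitals mark GAGGAA or AGGAAGT on either strand, which read TTCCTC and ACTTCCT on the strand opposite. The Mpeg1 and Lgals3 stretches hold neither spelling. Mmp12 has a further promoter entry, at chr9:7347234-7347383, which is not printed and holds neither.
Mpeg1, chr19:12460630-12460779, plus strand: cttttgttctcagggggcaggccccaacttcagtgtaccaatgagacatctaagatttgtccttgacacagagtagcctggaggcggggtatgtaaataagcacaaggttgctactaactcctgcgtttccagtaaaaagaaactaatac
Ctss, chr3:95526646-95526795, plus strand: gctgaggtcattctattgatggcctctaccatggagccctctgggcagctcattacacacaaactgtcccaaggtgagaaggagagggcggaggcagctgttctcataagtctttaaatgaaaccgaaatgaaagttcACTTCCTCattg
Lgals3, chr14:47373720-47373869, plus strand: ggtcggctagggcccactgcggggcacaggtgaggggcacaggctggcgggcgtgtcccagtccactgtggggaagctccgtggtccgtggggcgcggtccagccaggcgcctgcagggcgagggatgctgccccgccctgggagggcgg
Mmp12, chr9:7344257-7344406, plus strand: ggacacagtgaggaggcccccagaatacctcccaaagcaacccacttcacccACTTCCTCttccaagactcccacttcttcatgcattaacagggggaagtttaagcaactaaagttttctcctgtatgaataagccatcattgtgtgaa
Cd5l, chr3:87357741-87357890, plus strand: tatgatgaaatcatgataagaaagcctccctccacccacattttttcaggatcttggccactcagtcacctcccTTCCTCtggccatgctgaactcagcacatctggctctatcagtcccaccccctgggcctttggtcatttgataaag

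The values are linear intensities, and every array had been scaled as a whole, with a mean intensity of 500.4 on each array after the lowest and highest 2% of probe sets were left out. A floor of 68.9, the 30th percentile over the whole table, replaced lower values before log2 was taken, and testing required 3 or more of the 6 arrays above that floor. That left 28 member genes, each read by its brightest probe set, among 6557 genes tested. The members below this filter were Marco, Ccr2, Itgam, Ncf4 and Fcer1g. Between 8550 and 8856 probe sets lay above the floor on an array. Hepatocyte transcripts were present on every array, with albumin (Alb) between 34920 and 49245. Digestive enzyme transcripts of pancreatic acinar cells differed between arrays within each diet: the summed intensity of 5 of them ran from 1922 on high-fat array 3 to 10987 on high-fat array 2.

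With the high-fat diet, 0 of the 28 tested members passed an adjusted p of 0.05 in limma's test, while 0.976% of all genes did. At an unadjusted p under 0.05, 3 members were higher (Mpeg1, Tyrobp and Ctss) and 1 was lower (Rac2), where 5.2% of all genes were higher and 4.3% lower at that level. Of the 28 members, 21 had a log2 fold change above 0, against 51.3% of all genes, and 7 had one below 0. The median log2 fold change of high-fat over low-fat was 0.28 for the members and 0.01 for all genes. These counts cover only members that passed the filter on dim probe sets, from a list made with earlier results of these data known. The median moved with single arrays: without high-fat array 3 it was 0.14, with 17 of 27 members above 0, and without low-fat array 1 it was 0.18, with 20 of 27. Without both arrays numbered 3 it was 0.10, with 17 of 26.

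**Figure D1:**
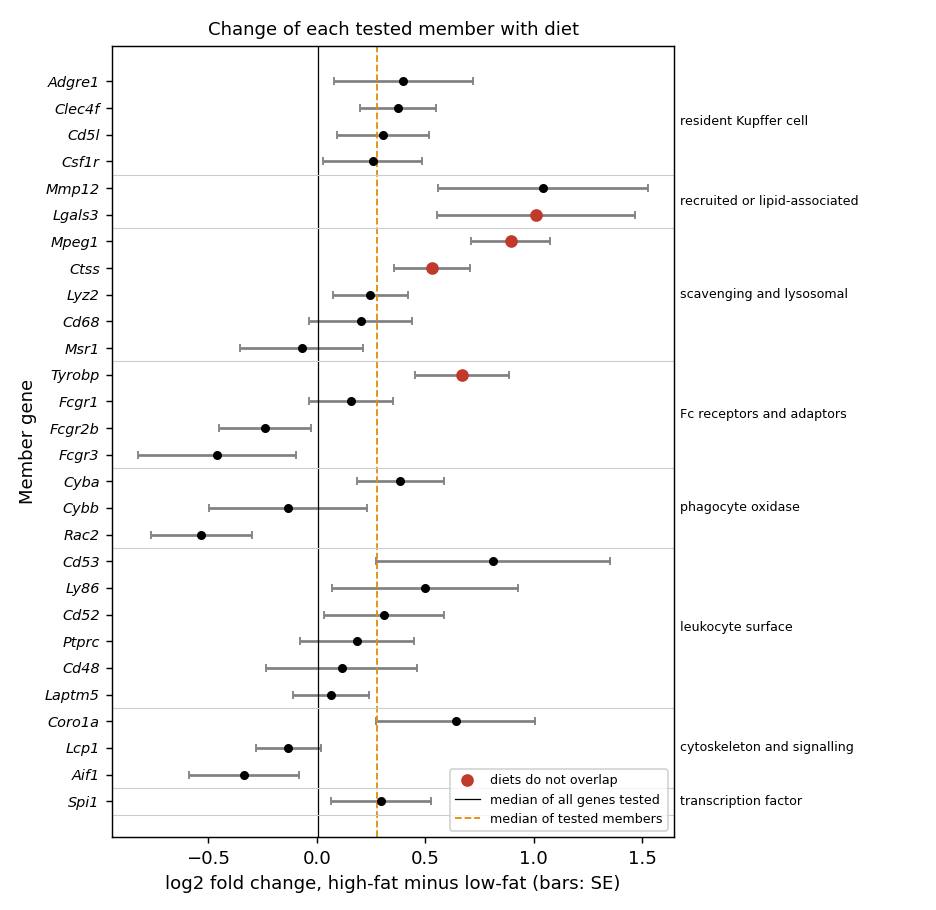
The log2 fold change of each tested member, high-fat minus low-fat, on the horizontal axis, with bars of 1 SE, grouped by role. The black line is the median of all genes tested (0.01), the dashed line that of the 28 members (0.28), and red points are the 4 members whose arrays did not overlap between diets.

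The tested members listed as resident markers had higher means on the high-fat diet, with arrays that overlapped between diets. Clec4f, a lectin receptor restricted to Kupffer cells, had intensities of 1609, 1355 and 1793 on high-fat arrays 1, 2 and 3, and of 1541, 1050 and 1105 on low-fat arrays 1, 2 and 3. Low-fat array 1 lay between the high-fat arrays. The means were 1585 ± 220 (SD, n = 3) and 1232 ± 269 (SD, n = 3), and the log2 fold change was 0.38 ± 0.18 (SE; adjusted p = 0.563). Cd5l, a secreted protein that macrophages make to limit their own apoptosis, stood at 931, 861 and 1253 on the high-fat and at 1063, 751 and 666 on the low-fat arrays. Low-fat array 1 was above high-fat arrays 1 and 2, and the log2 fold change was 0.31 ± 0.21 (SE; adjusted p = 0.749).

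Csf1r, the receptor for the growth factor that keeps macrophages alive, read 1324, 726 and 1200 on the high-fat and 774, 849 and 1026 on the low-fat arrays. High-fat array 2 was the lowest of all 6, so that the log2 fold change of 0.26 ± 0.23 (SE) gave an adjusted p of 0.824. A further Csf1r probe set, picked under relaxed probe rules, read 627, 1066 and 726 against 454, 380 and 732. On that probe set high-fat array 2 was the highest and not the lowest, and its log2 fold change was 0.65 ± 0.28 (SE). Adgre1, which encodes the surface protein F4/80, had 144, 266 and 210 on the high-fat and 111, 180 and 175 on the low-fat arrays, with a log2 fold change of 0.40 ± 0.32 (SE) and an adjusted p of 0.798. All 4 tested members listed as resident thus had log2 fold changes between 0.26 and 0.40. Their median was 0.34, and 0.22 without high-fat array 3. Csf1r and Adgre1 are genes of macrophages in general, so this list does not separate resident from recruited cells.

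Marco, a scavenger receptor for bacteria and particles, was not tested, since only high-fat arrays 1 and 3 lay above the floor. Its intensities were 141, 50.4 and 155 on the high-fat arrays. They were 26.2, 37.3 and 23.9 on the low-fat arrays, all under the floor. High-fat array 2 was also under the floor, though above each low-fat value.

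The markers of recruited or lipid-associated macrophages were high on 1 array, high-fat array 3. Lgals3, which encodes the lectin galectin-3, read 123, 116 and 394 on the high-fat arrays and 104, 92.7 and 71.7 on the low-fat arrays. No high-fat value overlapped with a low-fat one, but high-fat arrays 1 and 2 lay close to the low-fat ones. The means were 211 ± 159 (SD, n = 3) and 89.3 ± 16.2 (SD, n = 3), and the log2 fold change was 1.01 ± 0.46 (SE; adjusted p = 0.538). Without high-fat array 3 that log2 fold change was 0.44. Mmp12, a protease that macrophages use to cut elastin, read 99.9, 151 and 427 on the high-fat and 108, 93.6 and 72.7 on the low-fat arrays, through a probe set picked under relaxed rules. Its log2 fold change of 1.04 ± 0.49 (SE) gave an adjusted p of 0.559, and was 0.44 without high-fat array 3. The other Mmp12 probe set was above the floor only on high-fat array 3, at 134, and on low-fat array 3, at 71.2.

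The chemokine receptor Ccr2, which marks inflammatory monocytes, was above the floor on high-fat array 3 alone. It read 35.4, 54.2 and 152 on the high-fat and 60.6, 13.7 and 56.4 on the low-fat arrays. Itgam, the CD11b integrin chain of monocytes and granulocytes, was not above the floor on any array, and ranged from 17.8 to 68.9. The highest of those values was again on high-fat array 3. The median of the recruited markers, over Lgals3 and Mmp12 alone, was 1.03 on the log2 scale, and 0.44 without high-fat array 3. Neither the difference between resident and recruited markers nor its change with diet was tested.

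**Figure D2:**
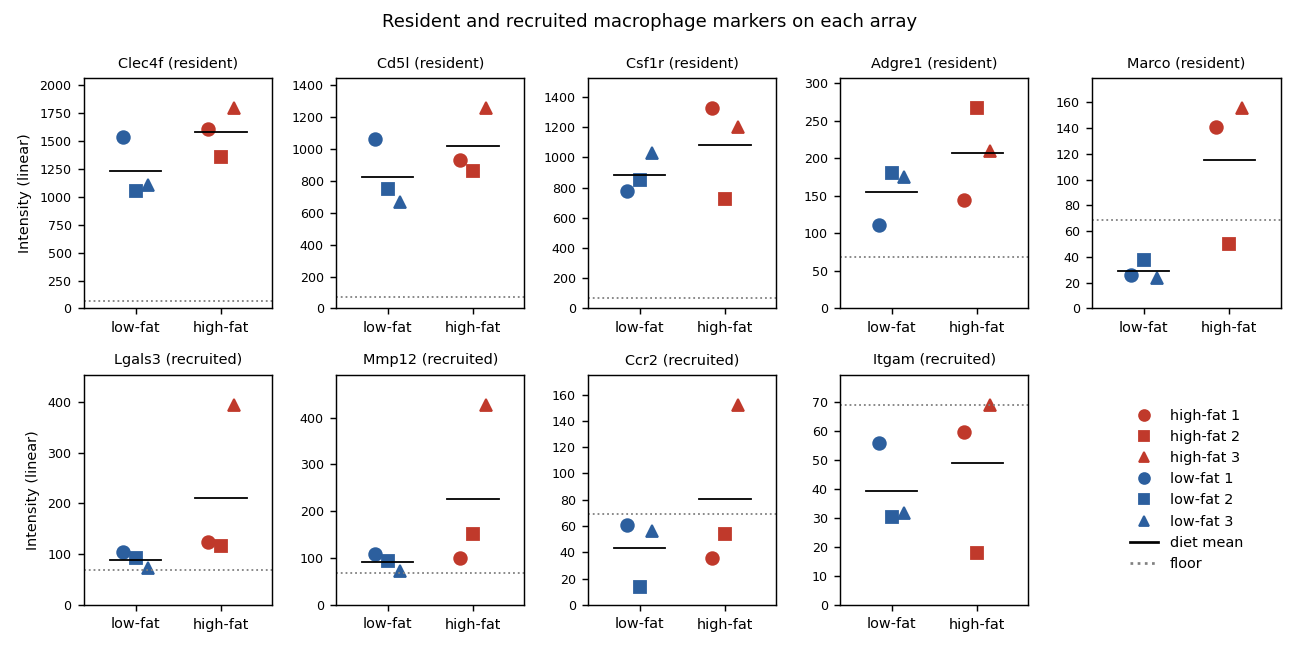
Linear intensity of 5 resident and 4 recruited markers on each array, 1 panel per gene with its own axis from 0, with bars at the mean of each diet and a dotted line at the floor of 68.9. High-fat array 3 (red triangle) is the highest point for Lgals3 (394), Mmp12 (427), Ccr2 (152), Clec4f and Cd5l, while high-fat arrays 1 and 2 lie near the low-fat arrays for Lgals3.

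Among the genes for scavenging and lysosomal breakdown, the smallest p was that of Mpeg1, which encodes the pore-forming protein perforin-2 of macrophages. It read 1210, 1659 and 1892 on the high-fat arrays and 961, 811 and 759 on the low-fat arrays. Every high-fat array was above every low-fat array. The means of 1587 ± 347 (SD, n = 3) and 843 ± 105 (SD, n = 3) gave a 1.86-fold difference, a log2 fold change of 0.89 ± 0.18 (SE) and an adjusted p of 0.0662. That p was 0.0263 without high-fat array 1 and 0.145 without high-fat array 3, and it ranged up to 0.295 over the alternatives tried.

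Ctss, the lysosomal protease cathepsin S of antigen-presenting cells, read 1551, 1637 and 2360 on the high-fat arrays and 1423, 1162 and 1203 on the low-fat arrays, again with no overlap. High-fat arrays 1 and 2 were only a little above low-fat array 1. The difference was 1.44-fold, with a log2 fold change of 0.53 ± 0.18 (SE) and an adjusted p of 0.341, and without high-fat array 3 the log2 fold change was 0.34. Lyz2, the lysozyme of myeloid cells, had 1011, 750 and 1161 against 816, 808 and 798. High-fat array 2 was below all low-fat arrays, and the log2 fold change was 0.25 ± 0.17 (SE). The Lyz2 probes may also read the near-identical Lyz1. Cd68, a lysosomal glycoprotein of macrophages, had 374, 390 and 651 on the high-fat and 367, 413 and 411 on the low-fat arrays. Only high-fat array 3 stood apart, and the log2 fold change of 0.20 was -0.06 without it. The scavenger receptor Msr1 had a log2 fold change of -0.07 ± 0.28 (SE) on one probe set and 0.27 ± 0.34 (SE) on the other.

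Fc receptors bind antibody-coated particles, and some of them signal through small adaptor chains. Tyrobp, the adaptor DAP12, read 567, 614 and 581 on the high-fat and 501, 331 and 303 on the low-fat arrays. The arrays did not overlap, and high-fat array 3 was not the highest here. The difference was 1.59-fold, with a log2 fold change of 0.67 ± 0.22 (SE), an adjusted p of 0.326, and 0.68 on the log2 scale without high-fat array 3. Fcer1g, the other adaptor, could not be tested: its brighter probe set was above the floor only on high-fat array 1, at 104, and low-fat array 1, at 88.2.

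Of the 3 receptor genes tested, 2 had log2 fold changes below 0, and 0 were called. Fcgr3, the activating low-affinity receptor, read 150, 68.3 and 64.2 on the high-fat and 101, 111 and 166 on the low-fat arrays. High-fat arrays 2 and 3 were below the floor, and the log2 fold change was -0.46 ± 0.37 (SE; adjusted p = 0.798). Fcgr2b, the inhibitory receptor, had a log2 fold change of -0.24 ± 0.21 (SE), and Fcgr1, the high-affinity receptor, one of 0.16 ± 0.19 (SE). The probe sets of Fcgr2b and Fcgr1 carry a suffix for probes shared between transcripts, and the extracellular parts of Fcgr2b and Fcgr3 are closely alike, so their signals may not be separate.

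The phagocyte oxidase makes superoxide from a membrane pair, Cybb and Cyba, and cytosolic partners that include Ncf4 and the GTPase Rac2. Rac2 read 416, 575 and 739 on the high-fat and 818, 668 and 979 on the low-fat arrays. High-fat array 3 overlapped with low-fat array 2, while high-fat arrays 1 and 2 were below all low-fat arrays. The log2 fold change was -0.53 ± 0.23 (SE; adjusted p = 0.513), and -0.73 without high-fat array 3. Cyba had 712, 640 and 879 against 661, 616 and 441, a log2 fold change of 0.38 ± 0.20 (SE; adjusted p = 0.616). Cybb, its catalytic partner, had a log2 fold change of -0.13 ± 0.36 (SE), with the highest value, 327, on low-fat array 3. The membrane pair had log2 fold changes of opposite sign, that of Cybb smaller than its SE and that of Cyba larger, and neither passed the threshold. Ncf4 was above the floor on high-fat arrays 1 and 3 alone, at 76.2 and 69.1, and read 24.1 to 31.5 on the low-fat arrays.

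All 6 leukocyte surface members had log2 fold changes above 0, from 0.07 for Laptm5 to 0.81 for Cd53, with a median of 0.25. Without high-fat array 3 the median was 0.14, and 3 of 5 were above 0. Cd53, a tetraspanin of leukocytes, read 223, 103 and 426 on the high-fat and 82.2, 220 and 100 on the low-fat arrays. The arrays of both diets overlapped widely, and the log2 fold change was 0.81 ± 0.54 (SE; adjusted p = 0.734). Ly86, the MD-1 partner of the receptor-like protein CD180, read 136, 195 and 53.1 against 137, 35.5 and 64.7. It passed the filter with just 3 arrays above the floor, and its log2 fold change was 0.50 ± 0.43 (SE; adjusted p = 0.820). Ptprc, which encodes CD45 of all leukocytes, was near the floor, with its highest value 102 on high-fat array 3. Cd52 and Cd48, both small surface glycoproteins, had log2 fold changes of 0.31 ± 0.28 (SE) and 0.11 ± 0.35 (SE).

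Laptm5, a lysosomal membrane protein of blood cells, was read differently by its probe sets, a case named after the values were seen. On the brighter one, marked as shared within a family, the values were 618, 566 and 829 on the high-fat and 664, 637 and 598 on the low-fat arrays. On the other they were 550, 518 and 472 on the high-fat and 564, 71.4 and 82.8 on the low-fat arrays. Low-fat arrays 2 and 3 were thus low on 1 probe set only, which gave log2 fold changes of 0.07 ± 0.18 (SE) and 1.78 ± 0.67 (SE), neither past the threshold.

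Of the genes for the leukocyte cytoskeleton, Coro1a, an actin-binding coronin, read 296, 321 and 417 on the high-fat and 119, 319 and 275 on the low-fat arrays. Low-fat array 1 was the lowest, and without it the log2 fold change was 0.20. With all arrays it was 0.64 ± 0.37 (SE; adjusted p = 0.683). Aif1, the actin-bundling protein IBA1, had 225, 179 and 162 against 285, 213 and 217, a log2 fold change of -0.34 ± 0.25 (SE; adjusted p = 0.781). Lcp1, the leukocyte plastin, had -0.13 ± 0.15 (SE). A dimmer Lcp1 probe set read 40.8, 20.4 and 74.8 on the high-fat and 42.1, 102 and 239 on the low-fat arrays. With 3 arrays above the floor, its log2 fold change was -0.75 ± 0.42 (SE). Spi1 itself, the gene of PU.1, read 314, 435 and 342 on the high-fat and 353, 295 and 242 on the low-fat arrays. Its log2 fold change was 0.30 ± 0.23 (SE; adjusted p = 0.792).

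**Figure D3:**
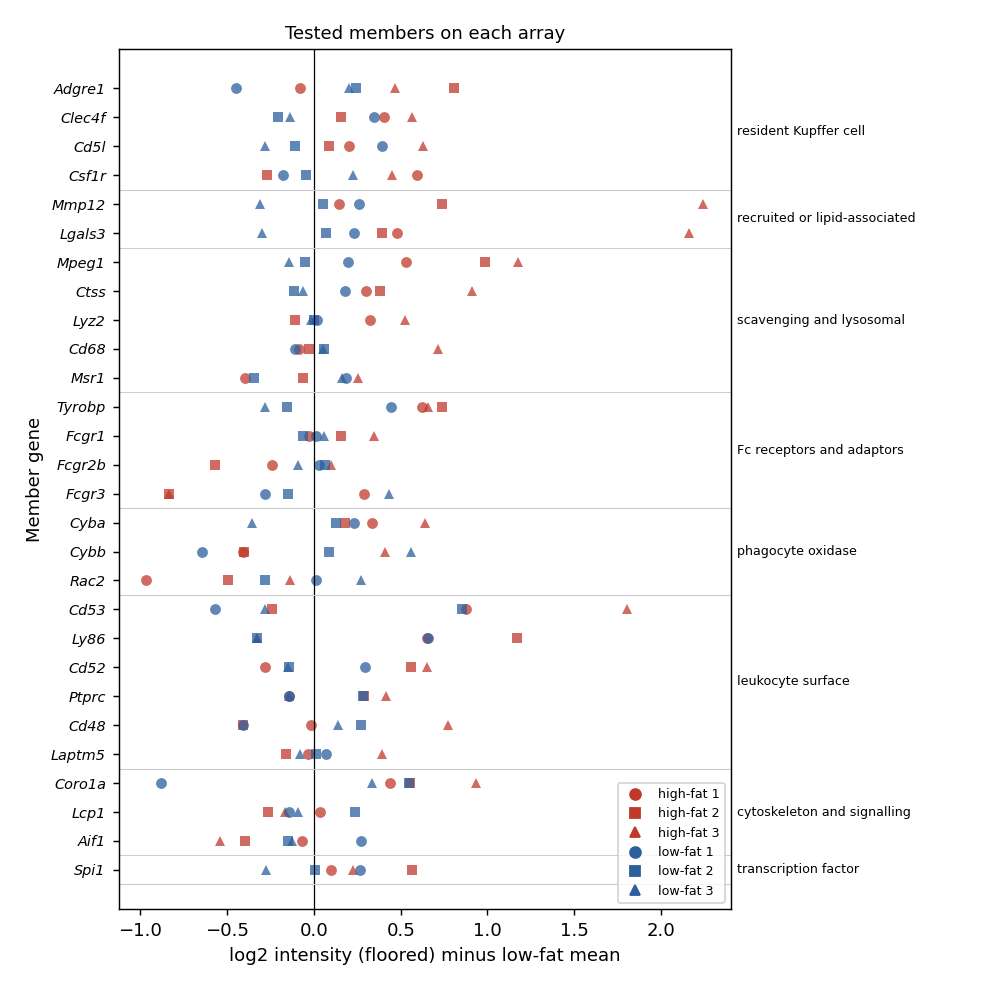
Log2 intensity of each of the 28 tested members on each array, minus the mean of the low-fat arrays, in red for high-fat and blue for low-fat arrays, with the array number as the point shape. High-fat array 3 (red triangle) is the highest point for 18 members, among them Lgals3, Mmp12, Cd53 and Cd68, and lies below all low-fat arrays for Fcgr3, Aif1 and Lcp1.

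High-fat array 3 gave the highest of the 6 values for 18 of the 28 tested members (64.3%), while it was the highest for 19.9% of all genes. The 5 other arrays were highest for 1 to 4 members each. On high-fat array 3 the members lay at a median of 0.43 on the log2 scale above the mean of the other high-fat arrays, where all genes lay at 0.02. The median SD of a member within the high-fat diet was 0.33 on the log2 scale and 0.27 within the low-fat diet, against 0.24 and 0.23 for all genes. The summed intensity of the members was 14635, 14210 and 19058 on the high-fat and 13629, 12687 and 12475 on the low-fat arrays. The sum was thus higher on each high-fat array than on any low-fat array, by a narrow margin on arrays 1 and 2. It weighs bright genes most, among them Mpeg1, at 1659 on high-fat array 2 and 961 on low-fat array 1. That gap is larger than the gap between the sums of those arrays, so without Mpeg1 the sums of the diets overlap.

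**Figure D4:**
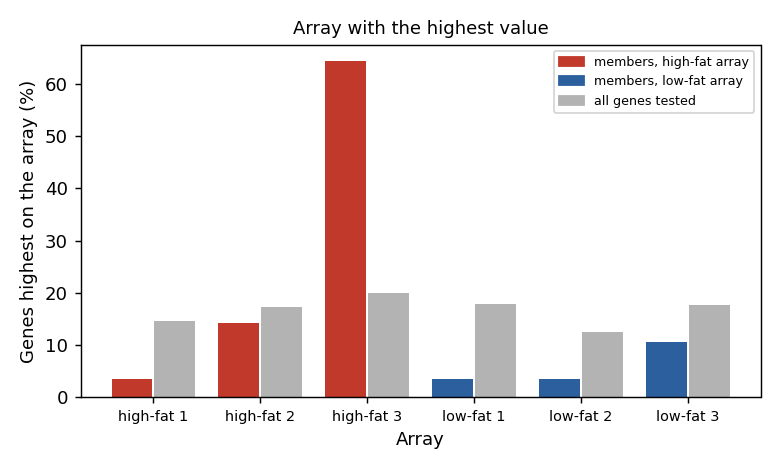
Percent of genes with their highest value on each array, for the 28 tested members (red for high-fat, blue for low-fat arrays) and for all genes tested (grey). High-fat array 3 is the highest for 64.3% of the members and 19.9% of all genes.

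The diets were fully apart for 4 members, Mpeg1, Ctss, Tyrobp and Lgals3, all higher on the high-fat diet, where 7.82% of all genes were higher on every high-fat array and 6.68% on every low-fat array. Without high-fat array 3 there were 4 of 27 higher and 2 lower, where 13.2% and 13.1% of all genes did so. That share of members is near the background. Without high-fat array 1, 10 of 27 members were higher on every high-fat array left, where 13.9% of all genes were. The counts were 9 of 26 without high-fat array 2 and 9 of 27 without low-fat array 1, where 11.6% and 12.8% of all genes were. They were 6 of 27 without low-fat array 2 and 4 of 28 without low-fat array 3, where 12.1% and 14.1% of all genes were. Without both arrays numbered 3 there were 4 of 26, where 20% of all genes were.

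Other cell types were read on the same arrays. Stellate cell and matrix genes were highest on high-fat array 3 in 4 of 8 tested genes. Their summed intensity was 9897 there, of which Dcn alone gave 5502. It was 7961 and 8329 on the other high-fat arrays and 7635 to 8060 on the low-fat arrays. Col1a2 was counted through a probe set with a suffix, at a log2 fold change of -0.07. Its other probe set read 190, 148 and 416 on the high-fat and 52.8, 46.2 and 134 on the low-fat arrays. That gave a log2 fold change of 1.40 ± 0.43 (SE) and, in limma's test, an adjusted p of 0.308 over all probe sets. Endothelial genes were highest on high-fat array 3 in 6 of 10. Their sum was 5984 there, of which Eng alone gave 3222. It was 4908 and 4972 on the other high-fat arrays and 5108 to 5535 on the low-fat arrays. Of the 10, 6 had log2 fold changes below 0, with a median of -0.095. T cell, B cell and neutrophil genes had 0 of 4, 0 of 7 and 0 of 6 tested genes highest on high-fat array 3, and NK cell genes 3 of 5. The B cell count depended on the probe sets used. A dimmer tested probe set of Pax5 and a dimmer one of Ighm were highest there, at 201 and 136. The other tested Ighm probe sets were not. The neutrophil count depended on the probe set that stood for Lcn2, a secreted protein of neutrophils that inflamed hepatocytes also make. The one counted read 310, 411 and 315 on the high-fat and 386, 339 and 333 on the low-fat arrays. The other, with no suffix, read 115, 468 and 2127 against 118, 30.5 and 74.4, by far the highest on high-fat array 3, at a log2 fold change of 2.52 ± 0.85 (SE) and an adjusted p of 0.381 over all probe sets. The T cell sum was 456 to 688 on the high-fat and 492 to 588 on the low-fat arrays, and the NK cell sum 561 to 817 against 457 to 577. The neutrophil sum was 1082 to 1222 on the high-fat and 1013 to 1167 on the low-fat arrays, and the B cell sum 1937 to 2426 against 1952 to 2145. The ratio of the Gapdh control's 3' to 5' signal was 0.89 on high-fat array 3 and 0.82 on low-fat array 3, and 1.04 to 1.23 on the other 4 arrays. With the Gapdh ratio as a covariate the members' median log2 fold change was 0.37, with 23 of 28 above 0. That of the recruited markers was 1.38. The cause of that shift and the part of the other cell types in the result were not tested.

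The other myeloid genes listed, 87 companions of the members, had 64 with a probe set and 54 tested. Of these, 0 passed an adjusted p of 0.05 in limma's test, where 0.976% of all genes did. At an unadjusted p under 0.05, 8 were higher and 0 lower, against 5.2% and 4.3% of all genes. Of the 54, 41 had a log2 fold change above 0, against 51.3% of all genes, with a median of 0.19. Arrays did not overlap for 14 of them, all higher on the high-fat diet, where 7.82% of all genes were higher and 6.68% lower without overlap. These counts cover only companions that passed the filter on dim probe sets. The 8, the 14 and the 41 all include Csf2ra, which passed that filter only through the high-fat arrays and so gives no support. They also include Ikzf1, and the 14 and the 41 include Itgb2. Each of these was above the floor on 4 arrays, with low-fat array 2 the only low-fat one. They too needed the high-fat arrays to pass. High-fat array 3 was the highest for 20 of 54, and without it 36 of 52 were above 0 with a median of 0.15.

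Of 9 tested companions listed under resident cells, all had log2 fold changes above 0, with a median of 0.30. They ran from 0.05 for Hmox1 to 0.57 for Cfp. Mrc1 and Nr1h3 were also near 0, at 0.05 and 0.07, and a further C1qb probe set was at -0.09. C1qa, a chain of complement C1q that macrophages make, read 2007, 1739 and 1807 on the high-fat and 1693, 1211 and 1129 on the low-fat arrays. Its arrays did not overlap, at a log2 fold change of 0.48 ± 0.17 (SE) and an adjusted p of 0.366. Cfp, the complement protein properdin, read 290.4, 289 and 330 against 286, 203 and 146, with a log2 fold change of 0.57 ± 0.28 (SE). The 11 monocyte and inflammatory genes tested had a median of 0.31. Itgb2, the CD18 integrin chain, read 96.6, 96.3 and 113 against 68.3, 82.4 and 55.0, so low-fat arrays 1 and 3 were under the floor. Fabp4, a fatty acid binding protein of macrophages and adipocytes, had 198, 146 and 132 against 77.4, 130 and 109. The monocyte chemokine gene Ccl2, named after its values were seen, was 71.5, 107 and 370 on the high-fat and 119, 64.9 and 112 on the low-fat arrays. As for Lgals3 and Mmp12, high-fat array 3 was by far the highest. Of the 11 genes, 4 were highest on that array, and others went the other way there. Cx3cr1, the 1 gene of the 11 below 0, had a log2 fold change of -0.56 ± 0.34 (SE). Cx3cr1 was lowest of all arrays on high-fat array 3, at 126, and so was Ccl3, at 48.9.

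Of 15 genes for phagocytosis and the lysosome, which hepatocytes also express, 11 were above 0 with a median of 0.22. The protease gene Lgmn read 553, 689 and 921 on the high-fat and 477, 411 and 517 on the low-fat arrays, and the lysosomal acid lipase gene Lipa, which frees cholesterol from taken-up lipoproteins, read 1021, 1889 and 1493 against 1016, 931 and 888. Their log2 fold changes were 0.60 ± 0.21 (SE) and 0.59 ± 0.21 (SE), each with an adjusted p of 0.381. Among 16 signalling and transcription genes, 9 were above 0 with a median of 0.11. Csf2ra, the GM-CSF receptor chain, read 103, 104 and 160 against 28.8, 63.9 and 56.2. Csf2ra was above the floor on the high-fat arrays alone, so it passed the filter only through the diet where it was high, and its adjusted p of 0.337 gives no support to the difference. Of 3 tested genes for pathogen sensing, the median was 0.06, with Irak1, a kinase downstream of Toll-like receptors, at -0.11 and the adaptor Myd88 at 0.11. Irak1 read 572, 779 and 708 against 724, 741 and 742, and Myd88 read 395, 218 and 391 against 305, 279.7 and 313, so that the diets overlapped for both.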

How the data were processed

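Liver RNA was measured on 6 Affymetrix mouse arrays. The deposited table holds 1 linear intensity per probe set from the authors. Their software and background correction are not given in these sources. The members, lists and rules were chosen with earlier results of these data known. Gene names came from the platform annotation, which gives 1 symbol for 10855 probe sets, several for 396 and none for 1237. Intensities were floored at 68.9 (30th percentile), and 8950 probe sets with at least 3 arrays above it entered limma 3.58.1 (R 4.3.3; eBayes with an intensity trend, two-sided), leaving out 66 control probe sets. The probe set with the highest mean log2 intensity stood for a gene, and p-values were adjusted by Benjamini and Hochberg over 6557 genes. Fold changes come from floored log2 means, so they understate the change of dim genes. SDs are of the deposited intensities. The script was tested on simulated data. Genes given array by array were all resident and recruited members and the 2 with the smallest p in each other role or companion list, apart from 1 companion gene that is not reported here. Other genes were named to account for every member, or after their values were seen. The number of arrays limits the precision. Alternatives are given with their effect in the closing section.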

Additional observations from a re-analysis of the deposited data

How the results depend on the processing

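Over 22 alternatives, 0 members were called in all but 3: Mpeg1 passed with array weights (1 call), at an adjusted p of 0.10 (1 call) and without high-fat array 1, and leaving out single arrays gave 0 to 1 calls. Between 16 and 26 members were above 0 over all alternatives, of 21 to 33 tested, and 17 to 23 with single arrays left out. The members' median ran from 0.14 to 0.35 with single arrays left out and was 0.10 with both arrays numbered 3 left out. Without single arrays, chosen after seeing the data, 4 to 10 members had all high-fat arrays higher, where 11.6% to 14.1% of all genes did. In those settings 0 to 3 members had all low-fat arrays higher, where 11% to 13.1% of all genes did. The median of the recruited markers was 0.71 with an added constant, 0.70 without a filter and 0.29 without both arrays numbered 3, and no value could be had with the floor at the 50th percentile. Quantile normalization and common median scaling left 21 members above 0. Signs turned in 17 of 593 gene results, each with an adjusted p of 0.830 or more: Cd48 with array weights (-0.033), Cd68 and Laptm5 without both arrays numbered 3 (-0.030 and -0.14), Cybb and Msr1 with the Gapdh ratio as a covariate (0.22 and 0.11), and Msr1 with the floor at the 50th percentile (0.011) or the mean over probe sets (0.10). With single arrays left out the ranges were -0.21 to 0.38 for Cd48, -0.055 to 0.35 for Cd68, -0.45 to 0.14 for Cybb, -0.097 to 0.18 for Laptm5 and -0.24 to 0.09 for Msr1. Over all genes, 74 probe sets were called, 8 without a filter, 20 without the intensity trend, 38 without both arrays numbered 3, 120 at an adjusted p of 0.10 and 26 to 75 with single arrays left out. The replicate block gave 0 called members and 103 probe sets; deviations of same-numbered arrays correlated at 0.06, 0.08 and 0.27. The last, of the arrays numbered 3, was the highest of all 9 pairs. High-fat array 3 correlated at -0.11 and -0.18 with low-fat arrays 1 and 2. High-fat array 2 correlated best with the low-fat array of its own number, and high-fat array 1 with low-fat array 2 (0.11). The labels do not say that the numbers pair the arrays, so the main fit held no pairing. Whether same-numbered arrays shared a batch was not tested. The cause of these shifts was not tested.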
